A study of Caenorhabditis elegans with 2 samples.

Results

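SCC-1 peaks on chromosome II were taken from the peak list of 1 chromatin immunoprecipitation (ChIP-seq) library as all records placed on that chromosome. There were 1122 of them among the 6780 peaks of the list, or 16.5% of all. The samples were 1 ChIP library, made with a rabbit polyclonal antibody against SCC-1, and 1 library of input DNA. Both came from Caenorhabditis elegans hermaphrodites (strain fem-2(b245)), with the genotype fem-2(b245)III, grown at 20 °C. No group without this allele was analysed here. The stage is given as a young adult that contains a germline, while the growth protocol speaks of gravid animals. Whole animals were ground up, so that a peak sums over somatic and germline cells, and more bound cells cannot be told apart from more binding per cell. With 1 ChIP library there was no spread between replicates to set a difference against.

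Cohesin is a ring of SMC-1, SMC-3 and a kleisin subunit, and it holds sister chromatids together and extrudes chromatin loops. SCC-1 is the kleisin used in mitotic divisions of the worm, and other kleisins, among them REC-8, serve in meiosis. The chromosomes of C. elegans are holocentric, so that kinetochores form along their length, and each autosome has a gene-rich centre between arms that hold more repeats. The allele b245 lies in fem-2, whose product is a phosphatase acting in sex determination.

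All positions are on WormBase WS220 and count from 1. Gene annotation and sequence of that build were not used here, so no peak was assigned to a gene. The first peak of chromosome II lay from 24233 to 25106 in the left arm and the last from 15262844 to 15263560 in the right arm. The 15.2 Mb between the outer edges of these peaks are called the span. The left arm is the outer 25% of the span, up to position 3834065, the right arm is the outer 25% from position 11453729 on, and the centre lies between them. Each peak was placed by its midpoint.

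In overall density chromosome II lay between the other autosomes. It carried 73.6 peaks per Mb (95% interval of the count 69.4 to 78.1), against 76.7 per Mb on chromosomes I, III, IV and V together. The ratio was 0.960 (exact binomial 95% interval 0.899 to 1.02), an interval that includes 1. Against single chromosomes it was 0.727 of chromosome III (interval 0.672 to 0.787), and 0.753 of chromosome I (interval 0.696 to 0.814). The density was 1.41 times that of chromosome V (interval 1.29 to 1.53). Against chromosome IV the ratio of 1.08 had an interval from 0.992 to 1.17, so these neighbours in the order did not differ by more than the counting error. Such intervals hold the counting error alone and assume that peaks are independent of their neighbours, which they are not. In covered length, peaks took 13.6% of the span of chromosome II and 13.7% of that of the other autosomes, a ratio of 0.992. The comparison with the pooled autosomes depends on which of them it includes. Without chromosome V the density ratio was 0.839 (interval 0.785 to 0.897), and without chromosome III it was 1.05 (interval 0.978 to 1.12).

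The peaks were unevenly spread along chromosome II, and the left arm was the sparse part. The right arm held 323 peaks, or 84.8 per Mb, the centre held 620, or 81.4 per Mb, and the left arm held 179, or 46.98 per Mb. The right arm thus had 1.80 times the density of the left (exact binomial 95% interval 1.50 to 2.18). Its density over that of the centre was 1.04 (interval 0.908 to 1.19), whereas the left arm reached 0.577 of the centre (interval 0.486 to 0.683). The lower density of both arms joined, 0.810 of the centre, was therefore the average of unlike arms. Joined arms were sparser than the centre on every other autosome too, at 0.800 on chromosome I, 0.799 on III, 0.880 on IV and 0.662 on V. Chromosome III had a similar form, with its left arm at 0.671 of the centre (interval 0.581 to 0.773) and its right arm at 0.926 (interval 0.815 to 1.05).

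The denser right arm set chromosome II apart from 3 of the other 4 autosomes. The ratio of right to left arm was 0.763 on chromosome I (interval 0.651 to 0.893), then 0.741 on chromosome IV (interval 0.624 to 0.880), and 0.895 on chromosome V (interval 0.738 to 1.09). None of these intervals overlapped that of chromosome II. Chromosome III also had the denser right arm, with a ratio of 1.38 and an interval from 1.17 to 1.63 that overlapped the one of chromosome II. Part by part, the right arm of chromosome II had 1.31 times the density of the right arms of the other autosomes (interval 1.15 to 1.49). The centre had 0.947 times that of their centres (interval 0.867 to 1.03). The left arm had 0.668 times that of their left arms (interval 0.567 to 0.782). Against the pooled autosomes, the near-average density of the chromosome thus joined a dense right arm and a sparse left arm. Neither arm was the extreme among single autosomes. The right arm of chromosome III was denser, at 104 peaks per Mb. Those of chromosomes I, IV and V reached 75.2, 54.5 and 39.3 per Mb. The left arm of chromosome V was sparser, at 43.9 per Mb. Those of chromosomes I, III and IV reached 98.6, 75.5 and 73.5 per Mb. The intervals of the right arm of III and the left arm of V overlapped those of chromosome II.

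**Figure D1:**
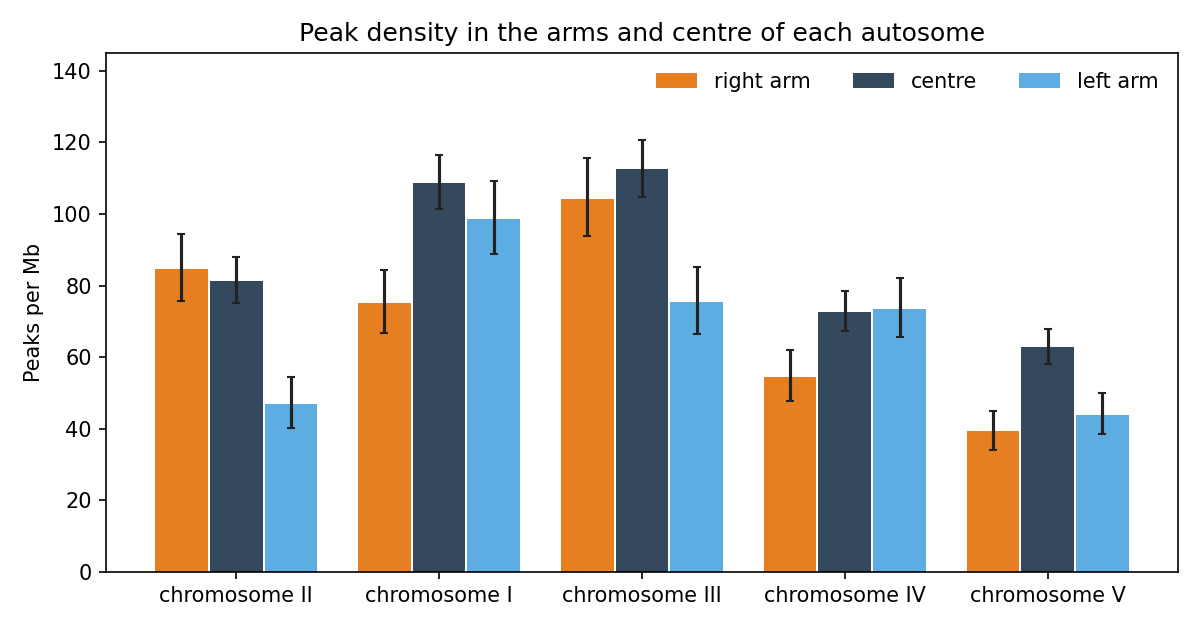
Peaks per Mb (vertical axis) in the right arm, the centre and the left arm of chromosome II and of chromosomes I, III, IV and V, with 95% Poisson intervals of the counts as error bars. On chromosome II the right arm reached 84.8 peaks per Mb and the left arm 46.98, while on chromosomes I and IV the left arm was the denser.

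In covered length the arms stood further apart than in peak number. Peaks covered 15.2% of the right arm, 16.4% of the centre and 6.44% of the left arm, so that the covered share of the right arm was 2.36 times that of the left. Among the other autosomes the same ratio of right to left ran from 0.615 on chromosome I to 1.60 on chromosome III. The left arm also had the lowest median width. The median was 1269 bp in the right arm (95% interval of the median 1167 to 1367 bp), and 971 bp in the left arm (interval 915 to 1148 bp). In the centre it was 1446.5 bp (interval 1336 to 1516 bp). The intervals of the arms did not overlap each other. The left arms of the other autosomes had a median width of 1126 bp (interval 1092 to 1171 bp), an interval that overlapped that of the left arm of chromosome II.

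The position of the peaks along the span showed the same shift to the right. On chromosome II the middle peak in rank order lay at 55.5% of the span, and the middle peaks of chromosomes I, III, IV and V lay at 46.9%, 52.3%, 48.4% and 50.1%. The right 50% of the span held 639 peaks, or 56.95% (exact binomial 95% interval 54.0% to 59.9%). The left 50% held 483 peaks. The first 25% of the peaks were reached only at 33.5% of the span, whereas on the other autosomes they were reached between 22.2% and 31.2%.

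**Figure D2:**
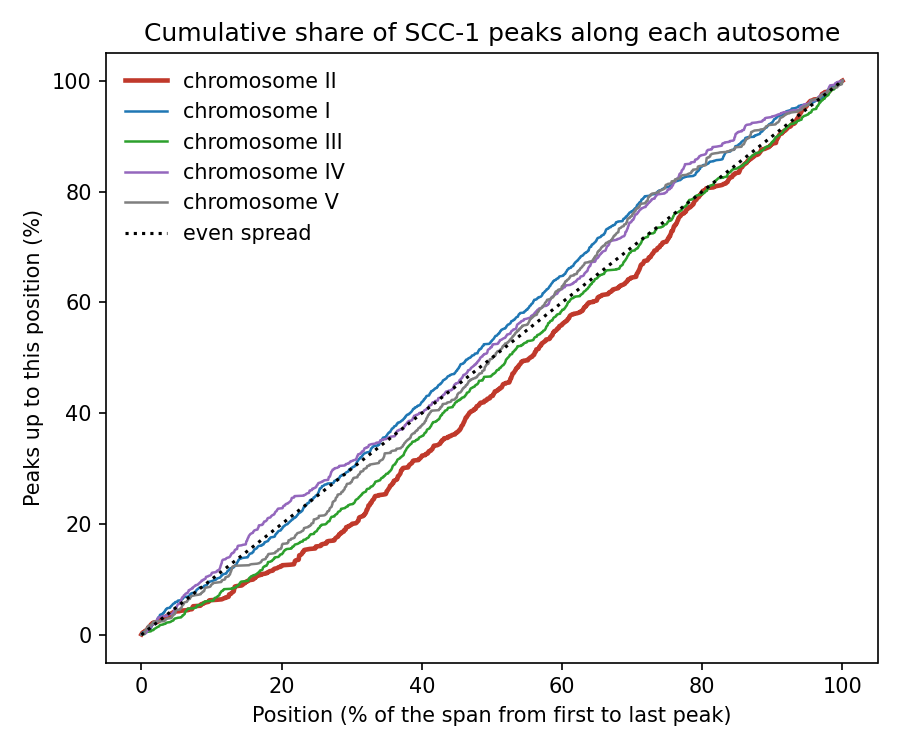
Share of the peaks of each autosome found up to a position (vertical axis, in %) against that position as a percentage of the span (horizontal axis); the dotted line is an even spread. Chromosome II runs below the even spread over most of its left side and reaches its middle peak at 55.5% of the span.

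Fixed windows of 500 kb, counted from base 1, gave the profile in more detail. The 30 full windows held between 14 and 62 peaks, with a median of 36 and quartiles of 27.25 and 47.75. The last 20 peaks lay beyond position 15000001 in an incomplete window. The 7 windows wholly in the right arm held 62, 39, 27, 47, 38, 54 and 28 peaks from left to right. The 7 windows wholly in the left arm held 35, 14, 20, 16, 30, 21 and 26 peaks from left to right. Of the right arm's windows 5 held more than 35 peaks, and of the left arm's none did, although the lowest counts of the right arm, 27 and 28, lay within the range of the left. In the centre the 14 full windows held 34, 48, 41, 46, 33, 38, 50, 36, 52, 53, 36, 34, 23 and 49 peaks. The windows across the arm borders held 50 peaks on the right side and 22 on the left.

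The 5 fullest windows all had their centres at 47.4% of the span or beyond, 3 of them in the centre and 2 in the right arm. The fullest, from 11500001 to 12000000, held 62 peaks (95% Poisson interval 47.5 to 79.5), and was covered to 30.3%. It was followed by 54 peaks from 14000001 to 14500000, 53 from 8500001 to 9000000, 52 from 8000001 to 8500000 and 50 from 7000001 to 7500000. A further window, from 11000001 to 11500000, also held 50 peaks. The fullest window also held the most peaks of 5 kb or wider, 7 of them, and the window from 8000001 to 8500000 held the next most, 6.

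The 5 emptiest windows all touched the left arm. The lowest count was 14, from 500001 to 1000000 (Poisson interval 7.65 to 23.5). It was followed by 16 peaks from 1500001 to 2000000, 20 from 1000001 to 1500000, 21 from 2500001 to 3000000 and 22 from 3500001 to 4000000. These windows were covered to between 4.0% and 8.1%. The first window of the chromosome, with 35 peaks, was fuller than any other in the left arm. One window of the centre, from 10000001 to 10500000, combined few and wide peaks, with 23 peaks, a median width of 2266 bp, the highest of the 30 windows, and a covered share of 12.4%.

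**Figure D3:**
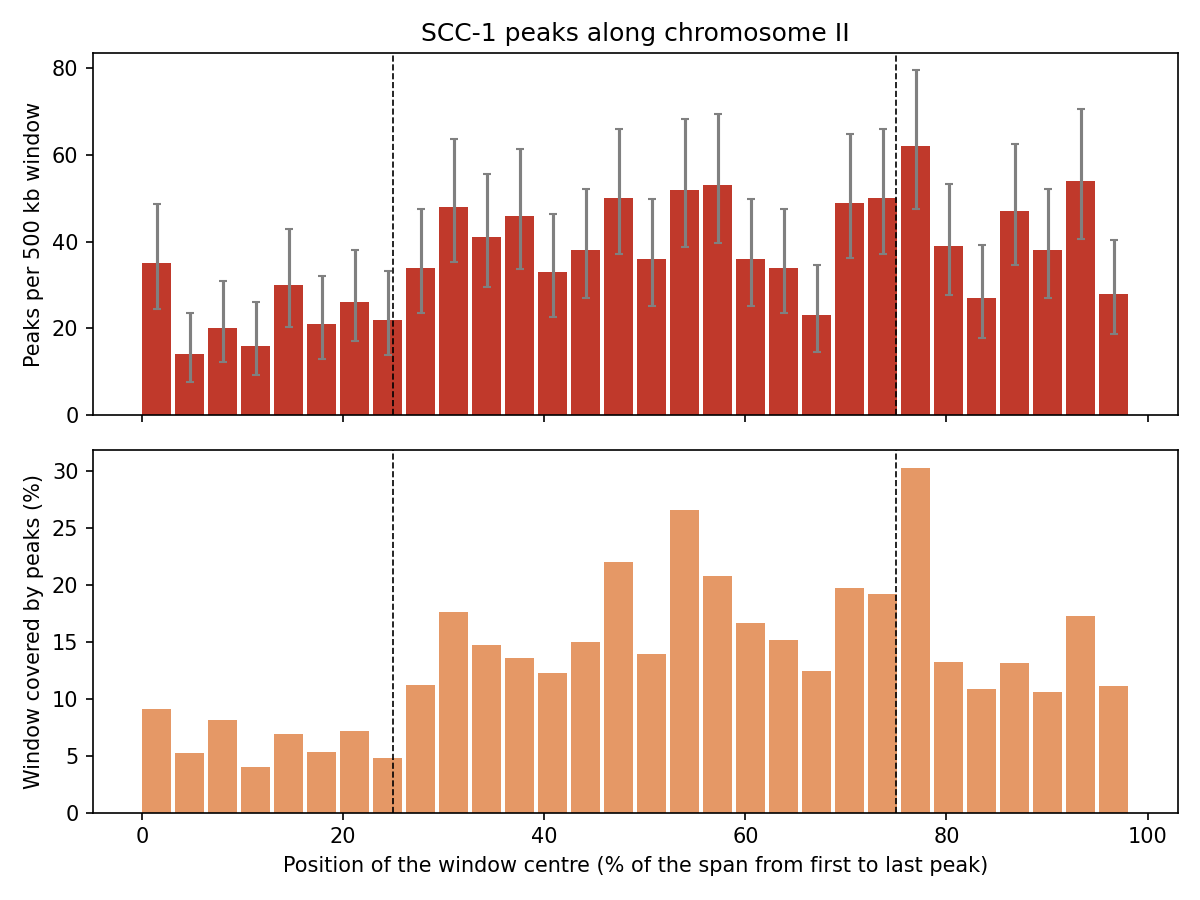
Number of SCC-1 peaks (upper panel, with 95% Poisson intervals) and share of the window covered by peaks in % (lower panel) for the 30 full 500 kb windows of chromosome II, placed by their centre as a percentage of the span; dashed lines mark the arm borders. Counts ran from 14 to 62, and the 7 windows wholly in the left arm stayed at or below 35 peaks and 9.10% covered.

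Window counts varied more on chromosome II than on the other autosomes when set against the counting error. Their SD was 12.5 around a mean of 36.7, so that the variance was 4.25 times the mean. This ratio was 2.66 on chromosome I, 2.25 on chromosome III, 2.96 on chromosome IV and 3.01 on chromosome V. Values above 1 mean that counts spread more widely than independent peaks at an even density would. Independent peaks at an uneven density, such as that of the arms and centre here, would give values above 1 as well. The ratio therefore does not measure how far the binomial intervals given here are too narrow. The spread relative to the mean was 34.0% on chromosome II and 33.9% on chromosome V, where counts were lower. Of the 30 windows 14 held more peaks than the median of 37 over the 132 windows of the other autosomes, whose counts ran from 4 to 68. Neighbouring windows of chromosome II had a correlation of 0.41 over 29 pairs, given as a description, since neighbours share their surroundings.

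Peak widths on chromosome II were much like those of the other autosomes. The median was 1293 bp on chromosome II, with quartiles of 891 and 2090 bp, against 1249.5 bp on the other autosomes, with quartiles of 887 and 2058.75 bp. The interval of the median on chromosome II, from 1228 to 1357 bp, included the median of the others. The difference of 43.5 bp turned to -77.0 bp among the top 50% of peaks by score. Peaks under 1 kb made up 34.2% of the peaks and 15.2% of the covered length on chromosome II. The narrowest were 549 bp from 15165739 to 15166287, 551 bp from 13469062 to 13469612, 603 bp from 655045 to 655647, 618 bp from 5693617 to 5694234 and 625 bp from 10502488 to 10503112. Their scores, the authors' own values from the peak caller on a scale that is not named, lay between 51.4 and 137.

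Peaks of 5 kb or wider numbered 53 on chromosome II, or 4.72% (exact binomial 95% interval 3.56% to 6.13%), and 243 on the other autosomes, or 4.72%. On chromosome II they held 19.3% of the covered length. By position, 14 of the 53 lay in the right arm, 36 in the centre and 3 in the left arm. As shares of the peaks of each part these were 4.33% in the right arm (interval 2.39% to 7.17%), then 5.81% in the centre (interval 4.10% to 7.95%), and 1.68% in the left arm (interval 0.347% to 4.82%). The 3 intervals overlapped, while the left arm's share lay below the interval of the centre. The difference between these shares was not tested. On the other autosomes together they were 2.86% in the right arms, 6.03% in the centres and 3.22% in the left arms. Single arms there ran from 0% in the right arm of chromosome V to 4.62% in the right arm of chromosome IV. The left arm of chromosome III had 1.15%. A lower share in the arms than in the centre was thus not particular to chromosome II.

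The widest peaks of the whole list were on chromosome II. It held the 2 widest, 5 of the 10 widest and 8 of the 36 that were 10 kb or wider. The last is 22.2% of such peaks (exact binomial 95% interval 10.1% to 39.2%), and this interval includes the 16.5% that chromosome II held of all peaks. The widest of all, 16522 bp from 11964429 to 11980950, lay in the right arm within the fullest window. The other right-arm peaks among the 10 widest measured 13891 bp from 14598619 to 14612509 and 11638 bp from 11773868 to 11785505. In the centre lay peaks of 16027 bp from 11104971 to 11120997, 12995 bp from 10541157 to 10554151, 11929 bp from 8456366 to 8468294, 11249 bp from 9212753 to 9224001 and 10257 bp from 9041108 to 9051364. The list of the 10 widest ended with 9966 bp from 10242041 to 10252006 and 9571 bp from 8883161 to 8892731, also in the centre. All 10 lay between 55.4% and 95.7% of the span, and none was in the left arm, where the widest peak measured 8282 bp. The widest peak on the other autosomes measured 13340 bp, on chromosome I.

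Width and score moved together. Across the 1122 peaks of chromosome II Spearman's rho was 0.75, a description across peaks of 1 library, and it lay between 0.74 and 0.78 on the single other autosomes. In the narrowest 25% of peaks, from 549 to 890 bp, the median score was 110.1, and 1 of 280 reached 3100 or more, the value at which scores of the list pile up. In the widest 25%, from 2092 bp upwards, 161 of 281 did, or 57.3%. Of the 53 peaks of 5 kb or wider 48 reached 3100, and the other 5 all lay in the centre. These 5 included the peak of 16027 bp with a score of 1388, the peak of 11249 bp with a score of 862 and the peak of 10257 bp with a score of 126. The remaining ones were 8442 bp from 7892257 to 7900698, with a score of 2419, and 6107 bp from 9168601 to 9174707, with a score of 2665. The peak of 10257 bp was the only one 5 kb or wider on any autosome with a score under 200, and it ended 126 bp before the next peak. On the other autosomes 31 of 243 peaks of that width scored under 3100, or 12.8% (interval 8.84% to 17.6%), beside 9.43% on chromosome II (interval 3.13% to 20.7%).

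**Figure D4:**
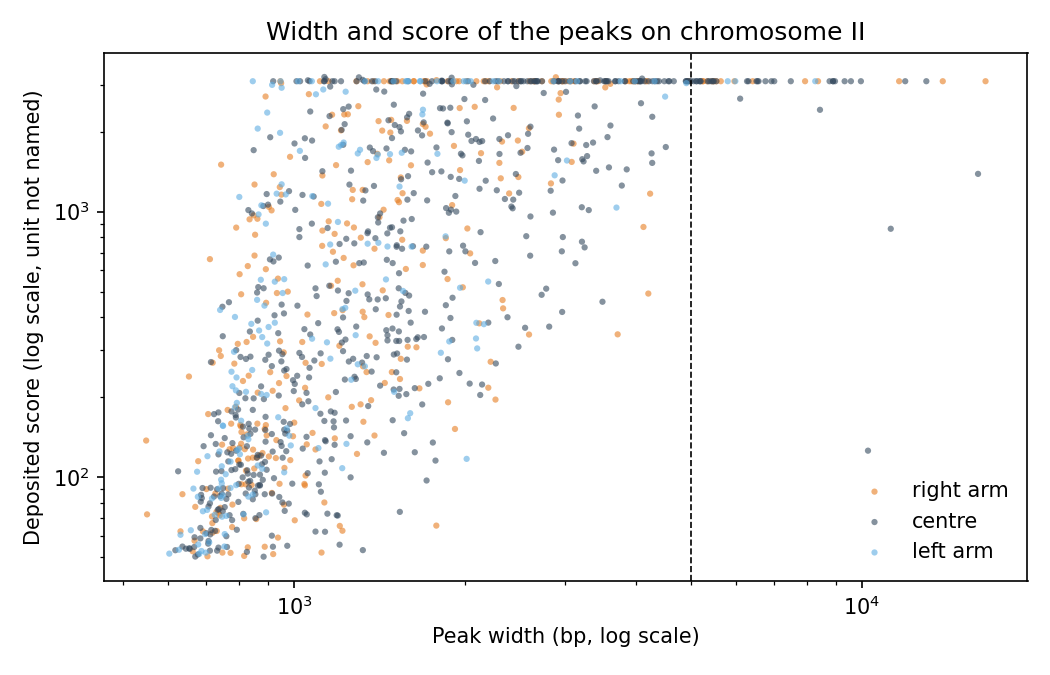
Deposited score (vertical axis, log scale, unit not named) against peak width in bp (horizontal axis, log scale) for the 1122 peaks of chromosome II, coloured by right arm, centre and left arm; the dashed line marks 5 kb. Of the 53 peaks right of the line 48 lie at 3100, and the peak of 10257 bp lies lowest, at 126.

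The median score was 570 on chromosome II (interval of the median 483 to 725), against 527 on the other autosomes. The interval on chromosome II included the median of the others. The difference was 43.3 over all peaks, but it was 175 among the top 50% of peaks by score and 138 when peaks within 500 bp of each other were merged. The share of peaks at 3100 or more was 20.9% on chromosome II (exact binomial 95% interval 18.5% to 23.4%), against 18.3% on the others (interval 17.3% to 19.4%). These intervals overlapped. Chromosome IV had a higher share, 21.5% (interval 19.2% to 24.0%), and chromosomes I, III and V had 17.3%, 17.4% and 17.5%. Within the chromosome the median score was 629 in the right arm (interval 453 to 875), then 650 in the centre (interval 481 to 830), and 381 in the left arm (interval 296 to 555). The intervals of right and left arm overlapped. The 5 highest printed scores ran from 3172 to 3216, and 4 of these peaks lay in the centre and 1 in the right arm. They were 1131 bp from 7758202 to 7759332, 2892 bp from 14398431 to 14401322, 1301 bp from 8061945 to 8063245, 1895 bp from 4851361 to 4853255 and 4103 bp from 6852495 to 6856597. None of them was among the 10 widest. Whether they rank above the peaks at 3100 is uncertain, because scores pile up at that value and the scale is not named.

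Gaps between neighbouring peaks, measured from the end of one to the start of the next, had a median of 3.22 kb on chromosome II (interval of the median 2.68 to 4.09 kb), and of 3.32 kb on the other autosomes. The quartiles on chromosome II were 0.857 and 14.3 kb, so that short and long gaps stood side by side. Of 1121 gaps 474, or 42.3%, were 2 kb or less (exact binomial 95% interval 39.4% to 45.2%), and on the other autosomes this share was 41.4%. Gaps of 100 bp or less took a smaller share on chromosome II than on chromosomes I and III. There were 48 of them, or 4.28% (interval 3.17% to 5.64%), against 6.12% on the other autosomes (interval 5.48% to 6.81%). The 2 intervals overlapped slightly, and the shares on chromosomes IV and V, 5.20% and 4.41%, had intervals that overlapped that of chromosome II as well. Chromosomes I and III had 7.14% (interval 5.87% to 8.58%), and 7.18% (interval 5.88% to 8.66%), both above the interval of chromosome II.

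Long gaps were most frequent in the left arm. The median gap within a part was 3.61 kb in the right arm (interval 2.42 to 5.30 kb), then 2.56 kb in the centre and 7.70 kb in the left arm (interval 4.83 to 10.4 kb). Gaps of 100 kb or more numbered 13, of which 2 lay in the right arm, 3 in the centre and 8 in the left arm. The 5 longest were all in the left arm. They measured 159.8 kb from 873921 to 1033725, 159.5 kb from 1501549 to 1661083, 159.3 kb from 3088592 to 3247852, 152.1 kb from 1153932 to 1306037 and 122.9 kb from 733018 to 855893. The longest gap of chromosome II lay between those of the other autosomes, which ran from 130.8 kb on chromosome I to 404 kb on chromosome V. Gaps of 50 kb or more made up 30.3% of the span of chromosome II, against 15.7% on chromosome I, 16.9% on chromosome III, 34.0% on chromosome IV and 46.8% on chromosome V.

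**Figure D5:**
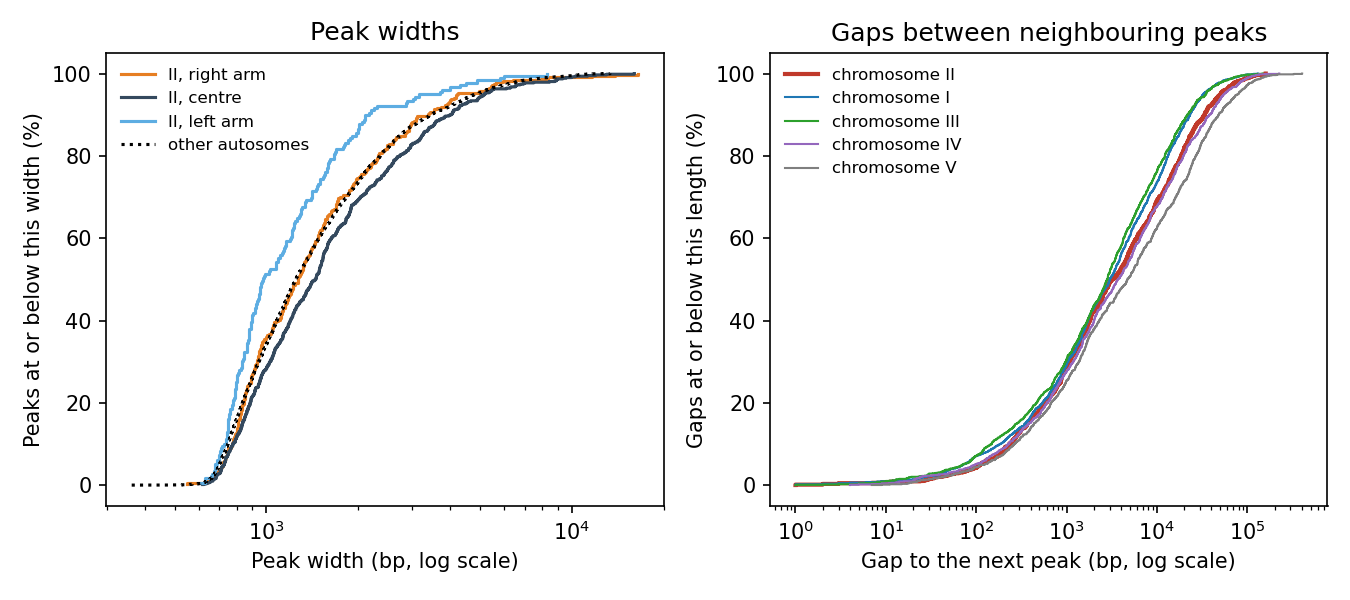
Left, cumulative share of peaks by width in bp (log scale) for the right arm, centre and left arm of chromosome II and for the other autosomes together; right, cumulative share of gaps by length in bp (log scale) for the 5 autosomes. The left arm has the lowest median width, 971 bp, and the median gap of chromosome II, 3.22 kb, lies between those of chromosomes III and V.

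Peaks with gaps of 20 kb or more on both sides numbered 47 on chromosome II, or 4.19% (exact binomial 95% interval 3.09% to 5.53%). This share was 1.70% on chromosome I (interval 1.10% to 2.50%), and 1.15% on chromosome III (interval 0.657% to 1.86%), both below that of chromosome II. It was 4.52% on chromosome IV, with an overlapping interval, and 7.16% on chromosome V (interval 5.70% to 8.85%). By part there were 16 such peaks in the right arm, 17 in the centre and 14 in the left arm. As shares of the peaks there these were 4.95% (interval 2.86% to 7.92%), 2.74% (interval 1.61% to 4.35%) and 7.82% (interval 4.34% to 12.8%). The intervals overlapped, those of the centre and the left arm only barely. Isolated peaks were not of 1 kind, since their median width of 1062 bp lay below the 1301 bp of the other peaks on chromosome II while their widest, of 13891 bp, was the third widest of the chromosome.

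At the other extreme, chromosome II held 23 clusters, here runs of 5 or more peaks with gaps of 2 kb or less. They held 135 peaks, or 12.0% (exact binomial 95% interval 10.2% to 14.1%), against 12.4% on the other autosomes. Per Mb of span there were 1.51 clusters on chromosome II, against 2.26 on chromosome I, 2.83 on chromosome III, 1.43 on chromosome IV and 0.528 on chromosome V. The number rests on the definition, since gaps of at most 1 kb gave 9 clusters and gaps of at most 3 kb gave 36. Most were small, with 11 clusters of 5 peaks and 7 of 6 peaks. The right arm held 6 clusters with 34 peaks, the centre 12 with 68 peaks and the left arm 5 with 33 peaks. As a share of the peaks of each part this was 10.5% in the right arm, 11.0% in the centre and 18.4% in the left arm. The left arm's share rested on 5 clusters, of which 2 held 9 and 8 of the 33 peaks. On the other autosomes the share ran from 4.37% in the left arm of chromosome V to 18.3% in the centre of chromosome III. The difference between the parts was not tested.

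The largest clusters were not in the densest part. The cluster with the most peaks, 9, lay in the left arm from 3444145 to 3455285, over 11.1 kb of which peaks covered 81.9%, with a median width of 841 bp. The next, with 8 peaks over 14.4 kb, also lay in the left arm, from 2035480 to 2049884, and was covered to 45.2%, with a median score of 86.4. Clusters of 7 peaks lay in the centre from 4901805 to 4921540 and from 9923881 to 9944191, and in the right arm from 13817349 to 13830083. The last of these had a median score of 2323, with 3 of its 7 peaks at 3100 or more. The clusters of 7 peaks in the centre held 1 and 0 such peaks, in the order given. No peak of the 2 largest clusters reached that value. Peaks in clusters had a median score of 409, and 13.3% of them reached 3100, against a median of 640 and 21.9% of the peaks outside clusters. Their widths were close, with a median of 1342 bp in clusters and 1287 bp outside. These differences describe peaks of 1 list, chosen by their spacing, and were not tested.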

How the data were processed

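ChIP-seq peaks of 1 ChIP library were analysed. Peaks were called with MACS on WormBase WS220, per the file headers, and BWA and ce10 are named in the submitters' processing notes. Neither the version and threshold of MACS nor its use of the input is given in the sources used here. Each peak has a deposited score, the authors' own value, which was used only to rank, filter and describe peaks. The depth is unknown, since no read counts were analysed here. A separate peak list of the series, whose name gives another target and antibody, was not used.

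Spans, densities, covered lengths, gaps and clusters were computed with numpy 2.4.6 and scipy 1.17.1 under Python 3.11.15 and drawn with matplotlib 3.10.9. Ratios and shares carry exact (Clopper-Pearson) 95% intervals, counts Poisson intervals and medians order-statistic intervals. Peaks of 1 library are not replicates, so no p-value is given. Interval and cluster functions were tested on simulated peaks. The named peaks are the 10 widest, 5 narrowest and 5 highest in score, the first and last, the 5 longest gaps, the 5 fullest and 5 emptiest windows and the 5 largest clusters. Peaks of 5 kb or wider below 3100 were named after their values were seen. The members, lists and definitions were chosen with earlier results of these data known. Alternatives used stricter scores, merged peaks, other arm, window, width and cluster limits, and left out single autosomes.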

Additional observations from a re-analysis of the deposited data

How the results depend on the processing

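The ratio of right to left arm density stayed above 1 with its interval in 7 of 7 alternatives, from 1.57 with arms of 33% of the span to 2.44 in the top 25% of peaks by score, including 1.68 and 1.70 without the fullest right-arm or the emptiest left-arm window, both added after seeing the data. The ratio of arms to centre stayed below 1 in 5 of 5. The density ratio to the other autosomes had an interval below 1 without chromosome IV, 0.925, and without chromosome V, 0.839. It was above 1, with an interval that included 1, without chromosome I, 1.04, without chromosome III, 1.05, and in the top 25%, 1.05. The covered ratio was 1.08 without chromosome I, 1.08 without chromosome III and 0.857 without chromosome V. The range of window counts, 96.0 peaks per Mb, was 48.0 and 34.0 in the top 50% and 25% and 164 with windows of 250 kb. The difference of median width, 43.5 bp, was -77.0 bp in the top 50% and -68.5 bp in the top 25%, so it has no settled direction. The difference of median score, 43.3, was 175 in the top 50%, 138 after merging and between 24.1 and 52.6 without single autosomes. It was 0 in the top 25%, where 234 of the 309 peaks of chromosome II were at 3100 or more. Scores pile up at 3100, so both medians fell on that value and this 0 says nothing about a difference. The share of broad peaks was 8.84% and 16.2% in those subsets, 10.3% when peaks within 500 bp of each other were merged, 14.0% at 3 kb and 1.60% at 8 kb. The median gap was 11.3 and 26.6 kb in the subsets and 5.63 kb after merging. The number of clusters, 23, was 1 and 0 in the subsets, 4 after merging, 9 and 36 with gaps of 1 and 3 kb, and 48 with 4 or more peaks, so it depends on its definition. Fewer peaks enter the subsets by construction, and a changed limit of width, gap or cluster size alters a share or count by definition. The subsets also kept the 48 of 53 peaks of 5 kb or wider that reached 3100. For the other changes the cause was not tested. No paired analysis was possible because only the ChIP library has a peak list here. In the absence of read counts, a region without peaks cannot be told from one without depth or without uniquely placed reads.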
